A study of Mus musculus with 15 samples.

Results

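Transcripts of 7 glutathione S-transferase genes, 3 of the alpha class (Gsta1, Gsta3 and Gsta4) and 4 of the mu class (Gstm1, Gstm2, Gstm3 and Gstm4), were measured in the large intestine of male C57Bl/6 mice aged 4 weeks. The 7 genes were taken as a list of names, by a rule that holds no measured value. The list was chosen with earlier results of these data known, and all 7 were among the 11606 genes tested. RNA sequencing gave 15 libraries in 5 groups of 3. Mice received either cymopol, a brominated compound of marine green algae, at 1.4 mmol/kg (high dose) or 0.3 mmol/kg (low dose), or a non-polar extract of an alga at 1.0 g/kg (high dose) or 0.3 g/kg (low dose), and the last group is labelled vehicle control. The agents were dissolved in Chremophor EL, a surfactant, with 10% DMSO. Gavage was repeated on 3 consecutive days, 24 h apart, and the large intestine was collected 12 h later. Nothing in the labels tells whether a group's libraries are from separate mice or from pooled tissue, so that p-values measure the spread between these libraries, which may be technical. Whole tissue was used, in which fewer cells of a type and less RNA per cell cannot be told apart.

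Glutathione S-transferases are soluble enzymes that join the tripeptide glutathione to electrophilic compounds, such as quinones and products of lipid peroxidation. The conjugates leave the cell through export pumps and are cut down to mercapturates. Many alpha- and mu-class genes of the mouse are targets of NRF2, a transcription factor that KEAP1 holds at a low level until electrophiles modify KEAP1, and that binds antioxidant response elements. In the gut, these enzymes belong to the first line of defence of the epithelium against compounds that are eaten.

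The 4 mu-class genes lie in 1 cluster on the minus strand of mouse chromosome 3 (GRCm38), Gstm3 at 107963696-107969283, Gstm2 at 107981702-107986453, Gstm1 at 108012255-108017973 and Gstm4 at 108040408-108044894. On the plus strand of chromosome 9, Gsta4 spans 78191966-78209348 and Gsta1 spans 78230656-78242684. Gsta3 lies on the plus strand of chromosome 1 at 21240589-21265661. The genes are close copies of each other, which bears on how their reads are assigned, and the first 60 coding bases of the 4 mu-class transcripts show how close. They are given here from GENCODE M21, from 1 transcript of each gene, with capitals where a base differs from Gstm1.
Gstm1: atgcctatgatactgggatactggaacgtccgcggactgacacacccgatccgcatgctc
Gstm2: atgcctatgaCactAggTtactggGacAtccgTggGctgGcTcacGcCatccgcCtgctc
Gstm3: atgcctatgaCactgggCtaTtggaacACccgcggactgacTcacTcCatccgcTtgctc
Gstm4: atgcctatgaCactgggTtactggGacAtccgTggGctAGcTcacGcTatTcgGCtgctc
Gstm3 differs from Gstm1 at 9 of these 60 bases, Gstm2 at 12 and Gstm4 at 14. Over the whole coding sequence, Gstm1 shared 89.4% of its bases with Gstm3, 85.9% with Gstm2 and 80.1% with Gstm4. The alpha-class members are further apart, with 74.1% identity between Gsta1 and Gsta3, 65.8% between Gsta1 and Gsta4 and 65.9% between Gsta3 and Gsta4.

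Identity alone does not make a read ambiguous, and the transcripts were therefore also compared by 50-base words shared with any other gene. Of the words of Gsta1, 89.7% were found in another gene, mostly in the predicted gene Gm3776, in Gsta2 and in the predicted gene Gm10639. The share was 28.8% for Gstm3, 23.1% for Gstm1 and 9.36% for Gstm2, and it was 0% for Gsta3, Gsta4 and Gstm4. Values of Gsta1 are thus uncertain, since its reads could be split among near-identical copies, and those of Gstm1 and Gstm3 are uncertain to a lesser degree. Gsta2, with 98.0% coding identity to Gsta1, was listed at 0 in all 15 libraries. Gm10639 was above 0 in 7 libraries, with up to 4.65 FPKM (a level scaled by transcript length and by the size of the library), and Gm3776 had no value.

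Promoter windows of 300 bases around the start were taken from RefSeq (GRCm38.p6) and matched 6 of the 7 genes by symbol, all but Gsta4. The core of the antioxidant response element was searched as TGACNNNGC on both strands. It was found in 12.4% of all 32851 windows and in 1 of the 6 genes, Gsta3, whose window at chr1:21240335-21240634 on the plus strand is given because it is the one with a match, shown in capitals. The match starts 121 bases before the start site.
Gsta3: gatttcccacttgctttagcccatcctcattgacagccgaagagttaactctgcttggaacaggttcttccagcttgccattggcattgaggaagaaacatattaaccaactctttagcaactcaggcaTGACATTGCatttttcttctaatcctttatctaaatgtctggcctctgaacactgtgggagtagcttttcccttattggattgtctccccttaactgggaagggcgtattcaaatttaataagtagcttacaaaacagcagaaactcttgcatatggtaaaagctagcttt
The letters of the core of the xenobiotic response element, GCGTG, stood in 32.4% of all windows and in those of Gsta1 and Gstm1. A TATA box, searched as TATAAA, stood in 13.6% of all windows and in a window of Gstm1. These matches describe letters in the windows and not binding. Sequence outside the windows was not searched, so that a window without a match does not show that a gene lacks the element.

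The libraries differed in depth and composition, and these differences ran with the groups. The tables hold no counts, and fragments were estimated from the bounds around each FPKM, as if these held counting error only. Bounds of some genes were wider than that, as Gpx2 at 14.3 FPKM in cymopol high-dose replicate 11 came to 0.000838 fragments. This estimate is therefore rough, as is any result that uses it. By this estimate, protein-coding genes held 289004 to 343638 fragments in high-dose cymopol libraries, 175518 to 559027 in high-dose extract libraries, 31971 to 183914 at the low dose of cymopol, 28592 to 107206 at the low dose of the extract, and 25265 to 227401 in vehicle libraries. The share of all fragments that fell in genes was 65.4% to 65.6% at the high dose of cymopol, 57.1% to 65.1% at that of the extract, 44.7% to 71.9% and 33.4% to 66.2% at the low doses of cymopol and extract, and 8.56% to 46.6% in the vehicle. Zeros were listed for 7.42% to 11.9% of tested genes in high-dose cymopol libraries and for 5.76% to 13.2% in high-dose extract libraries, against 27.3% to 51.4% in vehicle libraries. All 8 markers of surface colonocytes, such as Car1 and Slc26a3, were above 0 in every group. Their summed level was 996 to 1592 FPKM at the high dose of cymopol, 1097 to 1720.0 FPKM at that of the extract and 123 to 2576 FPKM in the vehicle. Crypt and proliferation markers ran with the groups. Their 5 genes summed to 5.66 to 14.1 FPKM at the high dose of cymopol, 4.69 to 8.46 FPKM at that of the extract and 8.09 to 32.4 FPKM at the low dose of cymopol, with all 5 above 0 in each of these groups. They summed to 0.318 to 3.4 FPKM at the low dose of the extract and to 1.06 to 2.64 FPKM in the vehicle, where Ascl2 and Smoc2 were listed at 0 and 3 of 5 were above 0. Macrophage markers summed to 11.9 to 38.1 FPKM at the low dose of cymopol, against 0 to 11.6 FPKM in the vehicle, with 4 of 4 above 0 in both. The part of these markers in the results was not tested. Markers of the small intestine summed to 471 FPKM in 1 cymopol high-dose library and to at most 4.16 FPKM in the others.

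At the high doses, 6 of the 7 genes lay further above the vehicle than the median gene did, and none passed the test. All 7 genes had a higher mean at the high dose of cymopol than in the vehicle, as did 79.6% of all genes tested, although Gstm2 turned below 0 under median-of-ratios scaling and quantile normalization, and Gsta1 and Gstm4 with voom. At the high dose of the extract, 6 of 7 had a higher mean, as did 77.1% of all genes. The 7 genes had a median difference from the vehicle of 1.54 in mean log2(FPKM + 1) at the high dose of cymopol, beside 0.81 over all genes tested. The median difference was 2.48 at the high dose of the extract, beside 0.71 over all genes tested. Gsta4, Gstm3 and Gstm1 stood furthest from the vehicle under the extract, and Gsta4 under cymopol. Gstm2 did not share the pattern when all 15 libraries were used. Without vehicle replicate 5, its difference at the high dose of cymopol was 1.16, the median of the 7 genes there. Because the vehicle libraries serve in both contrasts, the values under the 2 agents are not independent of each other.

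In the test with limma on all 15 libraries, 0 of 7 genes had an adjusted p under 0.05 at the high dose of cymopol, where 0.0172% of all genes tested did, and 0 of 7 at the high dose of the extract, where 0.00862% did. Adjustment was by Benjamini-Hochberg over all genes tested. At an unadjusted p under 0.05, 4 of 7 genes were higher at the high dose of the extract, against 10.6% of all genes tested, and 1 of 7 at the high dose of cymopol, against 12.5%. With voom, which uses the estimated fragments, 0 of 7 genes were called in either contrast, where 1.04% of all genes tested were called for cymopol and 1.17% for the extract, and the smallest adjusted p of a member was 0.0639, for Gsta4 at the high dose of the extract. Groups did not overlap, with every treated library above every vehicle library, for 3 of 7 genes at the high dose of cymopol, against 19.5% of all genes tested, and for 3 of 7 at the high dose of the extract, against 19.4%. The 3 genes for cymopol include Gstm4, whose levels were all below the worth of a single fragment in vehicle replicate 5. The share of all genes that lay above the vehicle without overlap is itself large in both contrasts. Since the 7 genes were chosen with earlier results of these data known, their counts beside these shares are a description.

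**Figure D1:**
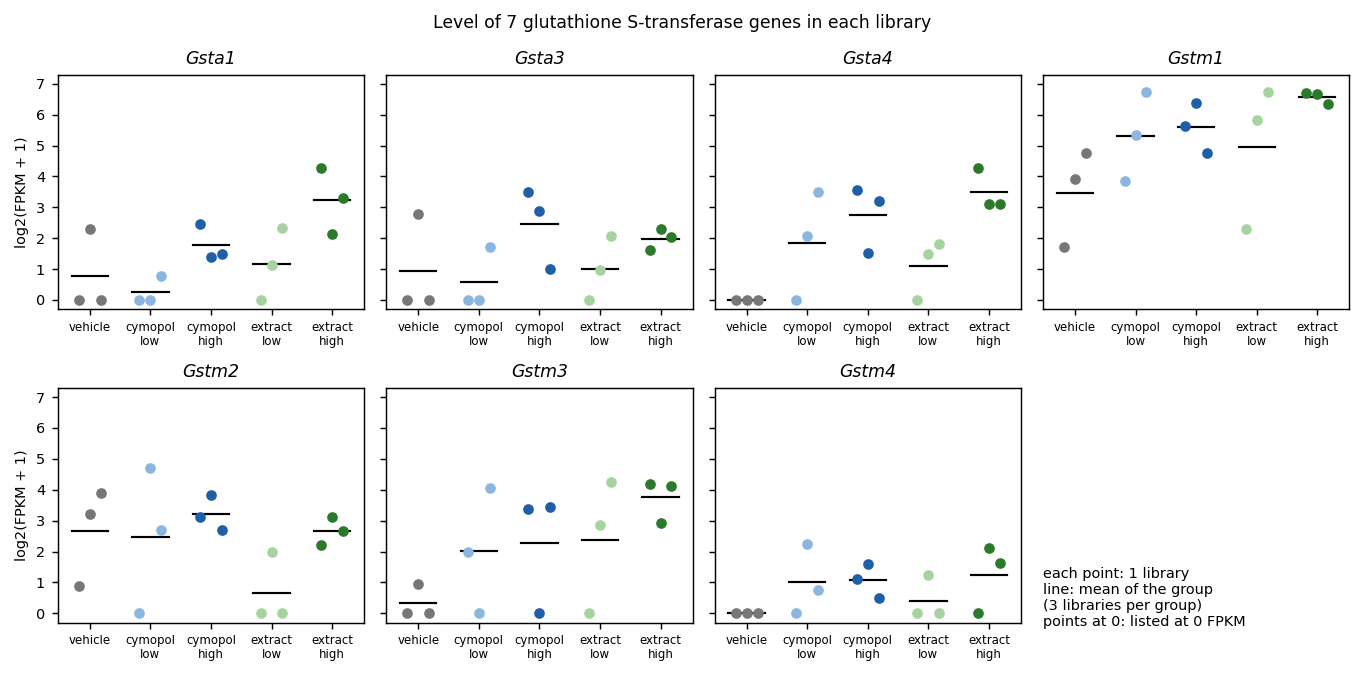
Level of each gene as log2(FPKM + 1) on the vertical axis, with 1 point per library and a black line at the mean of the 3 libraries of a group, for vehicle, the low and high dose of cymopol and the low and high dose of the extract. Gstm1 has the highest points in every group, Gsta4 and Gstm4 lie at 0 in all vehicle libraries, and the 3 extract high-dose points of Gstm1 lie close together at 80.8 to 103 FPKM.

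Gstm1, an abundant mu-class enzyme known for its broad range of substrates, had the highest level of the 7 genes, with a median of 48.7 FPKM over the 15 libraries and a value above 0 in each. It had 48.7, 82.9 and 25.9 FPKM in the high-dose cymopol libraries and 103, 102 and 80.8 FPKM in the high-dose extract libraries, against 2.28, 14.2 and 25.8 FPKM in the vehicle libraries. All 6 high-dose libraries were above all 3 vehicle libraries, although the lowest cymopol library exceeded the highest vehicle library by a margin far smaller than the spread in either group. At the low doses, Gstm1 had 13.4, 39.7 and 105 FPKM with cymopol and 3.93, 55.7 and 107 FPKM with the extract, ranges that overlapped those of the vehicle and of the high doses. The difference from the vehicle in mean log2(FPKM + 1) was 3.12 ± 1.31 (SE) at the high dose of the extract (limma, adjusted p = 0.381) and 2.13 ± 1.31 at the high dose of cymopol (limma, adjusted p = 0.475). These values rest on an estimated 168, 288 and 179.6 fragments in the high-dose extract libraries and 157, 145 and 45.6 in the high-dose cymopol libraries, against 4.99, 24.6 and 5.61 in the vehicle libraries.

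Gstm1 had no row under its own identifier in any of the 15 tables, and its level came in each library from a locus that the authors' software had assembled over the gene. A further assembled locus of 357 bp, wholly within exons of Gstm1, stood apart from it in 1 cymopol low-dose library (replicate 33) with an estimated 26.8 fragments. Adding it would raise the level of Gstm1 in that library by 19.8 FPKM, to a gene listed at 13.4 FPKM. With it, the difference between the high and the low dose of cymopol turned from 0.29 to -0.13 on the log2 scale, a setting added after seeing the data.

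Gstm3, a mu-class enzyme whose coding sequence is the closest to Gstm1, had 17.4, 6.67 and 16.4 FPKM in the high-dose extract libraries and 9.37, 0 and 9.83 FPKM in the high-dose cymopol libraries, against 0, 0.946 and 0 FPKM in the vehicle libraries. The extract group lay wholly above the vehicle, and the cymopol group did not, because 1 of its libraries was listed at 0 although it was the deepest of the 3. At the low doses, the levels were 2.91, 0 and 15.6 FPKM with cymopol and 0, 6.29 and 17.9 FPKM with the extract. The difference from the vehicle was 3.43 ± 1.19 (SE) in mean log2(FPKM + 1) at the high dose of the extract (limma, adjusted p = 0.310) and 1.95 ± 1.19 at the high dose of cymopol (limma, adjusted p = 0.468). Its level came from an assembled locus in 3 of the 15 libraries, among them extract high-dose replicates 23 and 25. The setting with annotated identifiers only puts 0 for such levels, and there the difference at the high dose of the extract was 1.08. That value therefore rests on zeros set in this way. The only vehicle library above 0 held an estimated 3.00 fragments of Gstm3, against 67.0, 45.2 and 103 in the high-dose extract libraries.

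Gstm2, a mu-class enzyme encoded between Gstm3 and Gstm1, departed from this pattern when all 15 libraries were used. Its levels were 7.74, 13.2 and 5.49 FPKM in the high-dose cymopol libraries and 3.67, 7.61 and 5.30 FPKM in the high-dose extract libraries, against 0.858, 8.35 and 13.9 FPKM in the vehicle libraries. Both high-dose groups lay inside or across the range of the vehicle. In the low-dose libraries, Gstm2 had 0, 25.1 and 5.55 FPKM with cymopol and 0, 3.00 and 0 FPKM with the extract. Its difference from the vehicle in mean log2(FPKM + 1) was -0.01 at the high dose of the extract, with a 95% interval of -2.34 to 2.32, and 0.55 at the high dose of cymopol, with an interval of -1.78 to 2.88. Under median-of-ratios scaling the value for cymopol was -0.38. The vehicle level of 13.9 FPKM rests on an estimated 3.75 fragments in the shallowest of the 15 libraries, and without that library the difference at the high dose of the extract was 0.60. Without vehicle replicate 2 it was -0.90, and the value for cymopol was -0.34.

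Gstm4, a mu-class member with a low median level of 0.403 FPKM, was listed at 0 in all 3 vehicle libraries. It had 1.16, 2.01 and 0.403 FPKM in the high-dose cymopol libraries and 0, 3.32 and 2.08 FPKM in the high-dose extract libraries. Cymopol high-dose libraries were thus all listed above the vehicle, and 2 of the 3 extract libraries were. A single fragment of Gstm4 was worth an estimated 0.202, 0.565 and 2.53 FPKM in vehicle replicates 2, 4 and 5. All 3 cymopol levels lay below the last of these, so that vehicle replicate 5 could not have shown them. The level of 0.403 FPKM rests on an estimated 0.275 fragments. The low-dose levels were 0, 3.76 and 0.677 FPKM with cymopol and 0, 1.34 and 0 FPKM with the extract. Its difference from the vehicle was 1.06 ± 0.71 (SE) in mean log2(FPKM + 1) at the high dose of cymopol (limma, adjusted p = 0.503) and 1.24 ± 0.71 at the high dose of the extract (limma, adjusted p = 0.492). The value for cymopol was 0.14 under quantile normalization and -0.36 with voom.

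Gsta4, the alpha-class enzyme known for its activity toward 4-hydroxynonenal, a reactive product of lipid peroxidation, had the smallest p of the 7 genes in both high-dose contrasts. It had 18.5, 7.59 and 7.62 FPKM in the high-dose extract libraries and 10.7, 1.88 and 8.19 FPKM in the high-dose cymopol libraries, and was listed at 0 in all 3 vehicle libraries. Every high-dose library therefore lay above every vehicle library. At the low doses it had 0, 3.23 and 10.3 FPKM with cymopol and 0, 1.82 and 2.51 FPKM with the extract. In mean log2(FPKM + 1), the difference from the vehicle was 3.50 ± 1.03 (SE) at the high dose of the extract (limma, adjusted p = 0.261) and 2.76 ± 1.03 at the high dose of cymopol (limma, adjusted p = 0.294). No fold is given against a group listed at 0, and these differences depend on the pseudocount of 1.

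The depth of the vehicle libraries bears on the zeros of Gsta4. A single fragment of this gene was worth an estimated 0.238, 0.667 and 2.99 FPKM in vehicle replicates 2, 4 and 5, so that the shallowest vehicle library could not have shown a level much under 3 FPKM. Vehicle replicate 4, in contrast, held an estimated 227401 fragments in protein-coding genes, more than the 175518 of extract high-dose replicate 21, in which Gsta4 reached 18.5 FPKM. Across all 15 libraries, Gsta4 was listed at 0 in 5. Those 5 had the lowest shares of fragments in genes, at 33.4% in an extract low-dose library, 44.7% in a cymopol low-dose library and 8.56%, 34.1% and 46.6% in the vehicle, and the other 10 had 48.4% to 71.9%. The part of this difference in the levels was not tested.

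**Figure D2:**
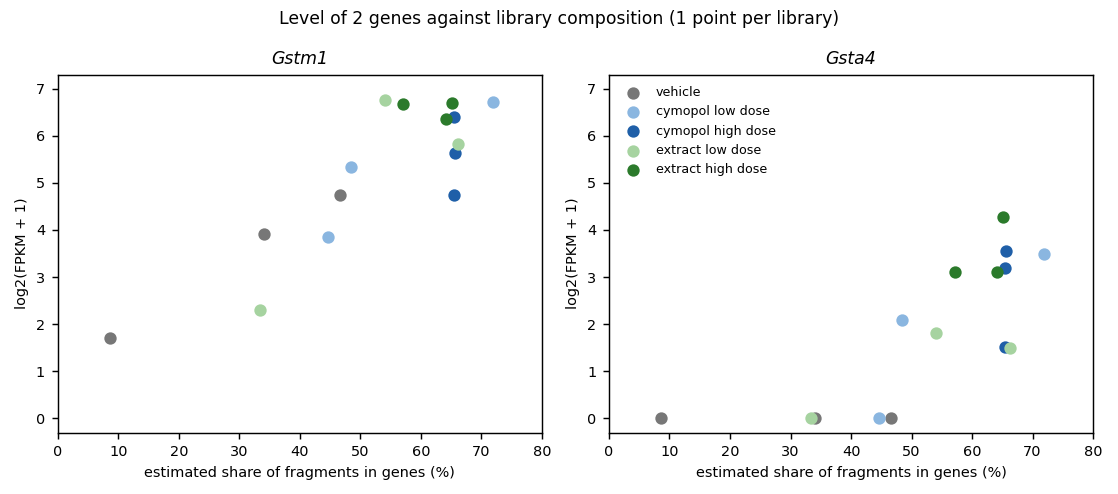
Level of Gstm1 (left) and Gsta4 (right) as log2(FPKM + 1) against the estimated share of fragments that fell in genes, in percent, with 1 point per library coloured by group. Vehicle libraries lie at 8.56% to 46.6% and the 6 high-dose libraries at 57.1% to 65.6%, so that the level of both genes, the composition of the library and the group cannot be told apart over most of the range.

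Gsta1, an alpha-class enzyme and a widely used readout of NRF2 in the mouse, had 18.5, 3.42 and 8.86 FPKM in the high-dose extract libraries and 4.55, 1.61 and 1.79 FPKM in the high-dose cymopol libraries, against 0, 3.94 and 0 FPKM in the vehicle libraries. Vehicle replicate 4 lay above 1 extract and 2 high-dose cymopol libraries, so that neither group was clear of the vehicle. The low-dose libraries had 0, 0 and 0.707 FPKM with cymopol and 0, 1.2 and 4.06 FPKM with the extract. The difference from the vehicle was 2.48 ± 0.95 (SE) in mean log2(FPKM + 1) at the high dose of the extract (limma, adjusted p = 0.352) and 1.01 ± 0.95 at the high dose of cymopol (limma, adjusted p = 0.633). The value for cymopol was -0.06 with voom on the estimated fragments, and that for the extract was 1.05 with annotated identifiers only. That setting puts 0 for the level in extract high-dose replicate 21, the 1 library where it came from an assembled locus. Its near-copy Gm10639 was listed at 4.65, 1.53 and 2.04 FPKM in the high-dose extract libraries and at 1.60, 0 and 0.681 FPKM in the high-dose cymopol libraries, against 0 in all 3 vehicle libraries.

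Gsta3 is an alpha-class enzyme known in the mouse for conjugating the epoxide of aflatoxin B1. It had 10.3, 6.34 and 1.02 FPKM in the high-dose cymopol libraries and 2.04, 3.89 and 3.09 FPKM in the high-dose extract libraries, against 0, 5.83 and 0 FPKM in the vehicle libraries. Both groups overlapped the vehicle through its replicate 4. Low-dose levels were 0, 0 and 2.28 FPKM with cymopol and 0, 0.946 and 3.18 FPKM with the extract. In mean log2(FPKM + 1), its difference from the vehicle was 1.54 ± 0.97 (SE) at the high dose of cymopol (limma, adjusted p = 0.484) and 1.05 ± 0.97 at the high dose of the extract (limma, adjusted p = 0.672). Without vehicle replicate 4, the deepest of the vehicle libraries, neither Gsta1 nor Gsta3 had a vehicle library above 0. In vehicle replicate 5, a single fragment was worth an estimated 3.10 FPKM for Gsta1 and 2.99 FPKM for Gsta3. Its zeros could thus not have shown levels much under these, as some high-dose libraries had.

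**Figure D3:**
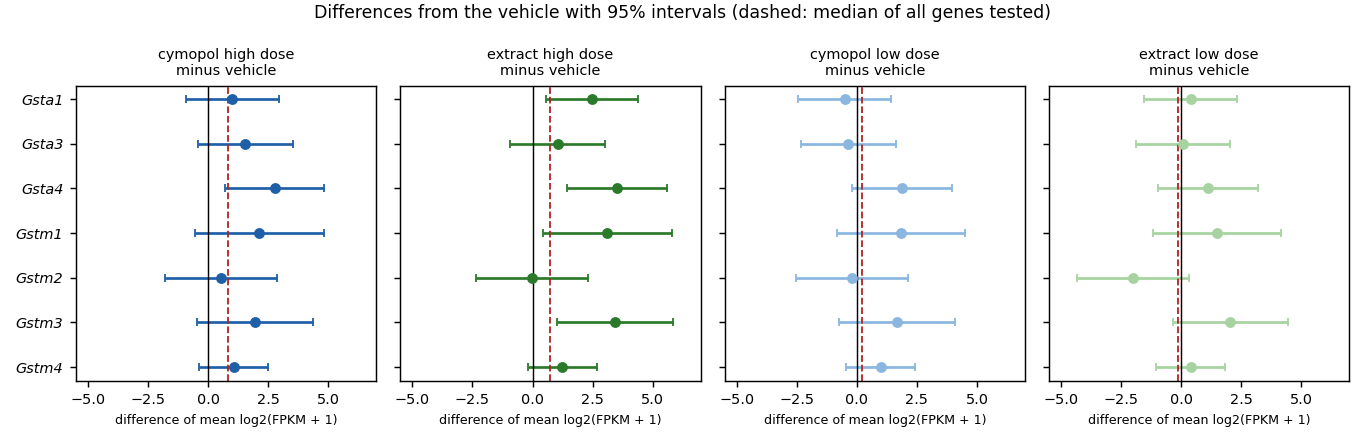
Difference in mean log2(FPKM + 1) between each treated group and the vehicle, with 95% intervals from limma on all 15 libraries (3 per group), for the 7 genes from top to bottom. A dashed line marks the median over all genes tested, which lies at 0.81 and 0.71 for the high doses of cymopol and extract. The intervals of Gsta1, Gsta4, Gstm1 and Gstm3 at the high dose of the extract, and of Gsta4 at the high dose of cymopol, lie above 0 before any adjustment for the number of genes.

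The low doses were compared with the same vehicle libraries. At the low dose of cymopol, 0 of 7 genes had an adjusted p under 0.05, as did 0% of all genes tested, and at the low dose of the extract the counts were again 0 of 7 and 0%. At an unadjusted p under 0.05, 0 of 7 genes were higher or lower in limma in either contrast. Of the 11606 genes tested, 658 had such a p with cymopol, 451 of them higher (3.89% of all). With the extract 451 had such a p, 128 of them higher (1.10% of all). No low-dose group was clear of the vehicle for any of the 7 genes, against 3.86% of all genes tested that lay above the vehicle without overlap for cymopol and 1.23% for the extract. The shares that lay below it are not given here. The mean lay above that of the vehicle for 4 of 7 genes with cymopol, against 59.0% of all genes tested, and for 6 of 7 with the extract, against 41.9%. The median difference of the 7 genes from the vehicle was 1.00 for cymopol, between -0.51 for Gsta1 and 1.86 for Gsta4, beside 0.23 over all genes tested, and it was 0.37 without cymopol low-dose replicate 34 and 1.5 without replicate 33. For the extract it was 0.41, between -2.01 for Gstm2 and 2.05 for Gstm3, beside -0.14 over all genes tested, and it was 1.1 without vehicle replicate 4 and 0.97 without extract low-dose replicate 26.

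Within each agent, the high dose was then set against the low dose, in a contrast without the vehicle. For the extract, all 7 genes had higher means at the high dose in FPKM as deposited, while Gstm1 turned below 0 under median-of-ratios scaling and voom and Gstm3 with annotated identifiers only. They had a median difference of 1.62 in mean log2(FPKM + 1), beside 0.89 over all genes tested, of which 88.0% were higher. None of the 7 passed the adjusted threshold, as 0.00862% of all genes did. The groups did not overlap for 2 of 7, Gsta4 and Gstm2, against 20.9% of all genes tested. Gsta4 differed by 2.4 ± 1.03 (SE; limma, adjusted p = 0.638) and Gsta1 by 2.09 ± 0.95 (SE; limma, adjusted p = 0.638), the 2 genes with an unadjusted p under 0.05, against 7.11% of all genes tested that were higher at that level. For Gstm1 the difference of 1.62 was -0.06 under median-of-ratios scaling and 0.29 without extract low-dose replicate 26. For Gstm3 the difference of 1.38 was -0.97 with annotated identifiers only, where its levels from assembled loci were set to 0. Markers of 3 other cell types were also higher at the high dose of the extract without overlap, in summed level. Crypt and proliferation markers summed to 4.69 to 8.46 FPKM at the high dose and 0.318 to 3.4 FPKM at the low dose, enteroendocrine markers to 33.8 to 191 FPKM and 1.25 to 27.8 FPKM with Gcg listed at 0 throughout the low dose, and endothelial markers to 3.90 to 5.28 FPKM and 0 to 3.46 FPKM. The other marker lists overlapped between these doses, beside 20.9% of all genes tested that were higher without overlap. The part of the markers in the differences was not tested.

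For cymopol, all 7 means were again higher at the high dose in FPKM as deposited and 4 of 7 under other scalings, by a median of 0.75 as deposited, beside 0.59 over all genes tested, of which 76.8% were higher. None passed the adjusted threshold, against 0.00862% of all genes, and none had an unadjusted p under 0.05, against 5.38% that were higher at that level. Only Gsta1 was without overlap, against 9.74% of all genes tested, with 4.55, 1.61 and 1.79 FPKM at the high dose and 0, 0 and 0.707 FPKM at the low dose. The mu-class genes Gstm1, Gstm3 and Gstm4 differed by 0.29, 0.26 and 0.06, and each of these turned below 0 under median-of-ratios scaling, quantile normalization and voom.

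The high doses of the agents were compared directly, without the vehicle, although their amounts are given in different units and are not matched. Of the 7 genes, 2 had a higher mean with cymopol, Gsta3 by 0.49 and Gstm2 by 0.56 in mean log2(FPKM + 1), beside 57.4% of all genes tested. The other 5 were between 0.18 and 1.48 lower with cymopol than with the extract by the same measure. Of these, Gstm4 turned to 0.28 with a pseudocount of 0.1. Gstm3 turned to 0.87 with annotated identifiers only, where its levels from assembled loci were set to 0. Gstm4 was also above 0 without cymopol high-dose replicate 14, at 0.11, and without extract high-dose replicates 23 and 25, at 0.25 and 0.01. Gsta3 turned to -0.03 without cymopol high-dose replicate 11. None passed the adjusted threshold, against 0.0172% of all genes. None had an unadjusted p under 0.05 in either direction, against 204 of the 11606 genes tested, 112 of them higher with cymopol (0.965% of all). No gene of the 7 was without overlap, against 4.47% of all genes that lay higher with cymopol. The share that lay lower without overlap is not given here. For Gstm3, the difference of -1.48 had a 95% interval of -3.90 to 0.93 (limma, adjusted p = 1.00), and for Gsta1 the difference of -1.46 had an interval of -3.39 to 0.46 (limma, adjusted p = 1.00). These intervals do not show that the agents act alike. Summed marker levels also differed between these groups without overlap, with 106 to 231 FPKM for 6 of 6 fibroblast markers at the high dose of cymopol and 47.6 to 102 FPKM at that of the extract. For the 6 of 6 adipocyte markers they were 133 to 260.2 FPKM and 19.6 to 66.3 FPKM, and for the 4 of 4 macrophage markers 7.97 to 17.4 FPKM and 0 to 6.82 FPKM. The other marker lists overlapped between these groups, beside 4.47% of all genes tested that lay higher with cymopol without overlap. The part of the markers in the differences between the agents was not tested.

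Shares within a library do not depend on how libraries were scaled against each other. Gstm1 made up 52.6%, 76.8% and 49.2% of the summed FPKM of the 7 genes in high-dose cymopol libraries and 63.1%, 75.8% and 65.1% in high-dose extract libraries, against 72.6%, 42.7% and 65.0% in vehicle libraries. Its share thus overlapped the vehicle at both high doses (exact permutation test, two-sided, p = 1.00 for cymopol and p = 0.50 for the extract). With 3 libraries against 3, this exact test cannot go below p = 0.1. At the low dose of the extract, Gstm1 made up 100.0%, 79.2% and 79.4%, the first in a library where no other member was above 0, clear of both the vehicle and the extract high dose (exact permutation test, p = 0.10 each). The alpha-class genes together held 9.11% to 27.6% at the high dose of cymopol and 11.1% to 24.0% at that of the extract, against 0% to 29.4% in the vehicle. The summed level of the 7 genes was 52.6 to 108 FPKM and 124 to 163 FPKM at the high doses of cymopol and extract, against 3.14 to 39.7 FPKM in the vehicle. Unlike the shares, this sum depends on the scaling of the libraries. Fragments in genes were 8.56% to 46.6% in vehicle libraries and 57.1% to 65.6% in high-dose libraries, and the part of this in the sum was not tested.

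**Figure D4:**
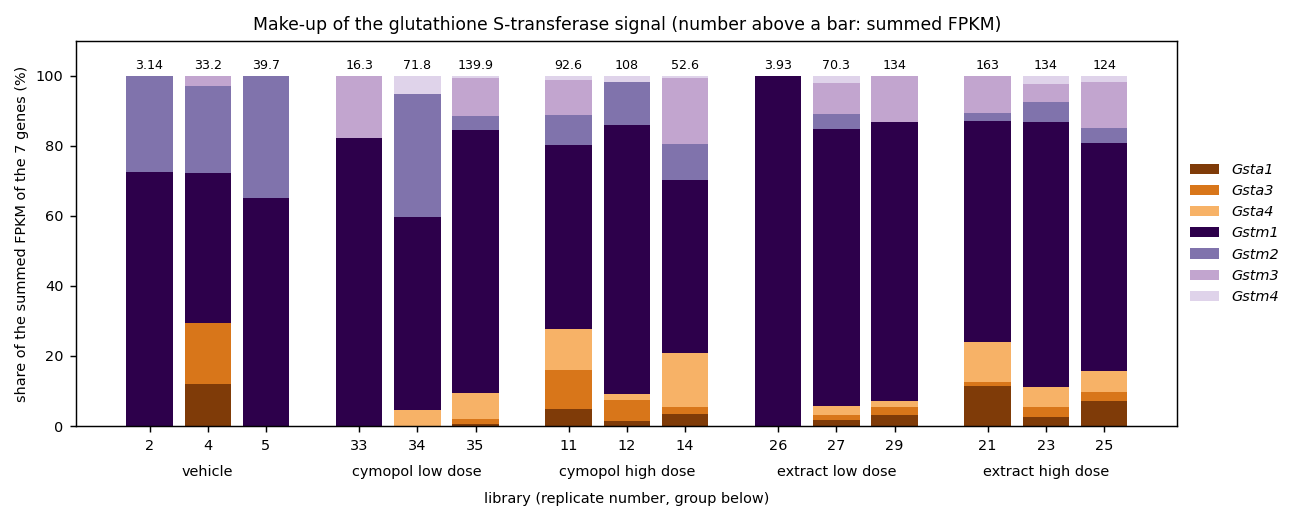
Share of each gene in the summed FPKM of the 7 genes, in percent, as stacked bars with 1 bar per library and the summed FPKM above it. Gstm1 is the tallest segment in all 15 libraries, at 42.7% to 100.0%, and Gstm2 takes 25.1% to 35.0% in the 3 vehicle libraries.

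Gstm1 and Gstm2, neighbours on chromosome 3, were also compared within libraries. The FPKM of Gstm1 over that of Gstm2 was 6.30, 6.26 and 4.72 in high-dose cymopol libraries and 28.0, 13.4 and 15.3 in high-dose extract libraries, against 2.65, 1.70 and 1.86 in vehicle libraries. The 3 groups did not overlap each other. The mean log2 ratio was 1.49 higher with cymopol and 3.14 higher with the extract than with the vehicle, and 1.65 lower with cymopol than with the extract (exact permutation test, two-sided, p = 0.10 each, the smallest possible). Low-dose libraries had ratios of 1.58 and 18.9 with cymopol and 18.6 with the extract, and no ratio where Gstm2 was listed at 0. This ratio was chosen after its values were seen, and in the vehicle it rests on few fragments, an estimated 0.545, 14.9 and 3.75 for Gstm2. A ratio within a library does not show which of the genes differed.

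**Figure D5:**
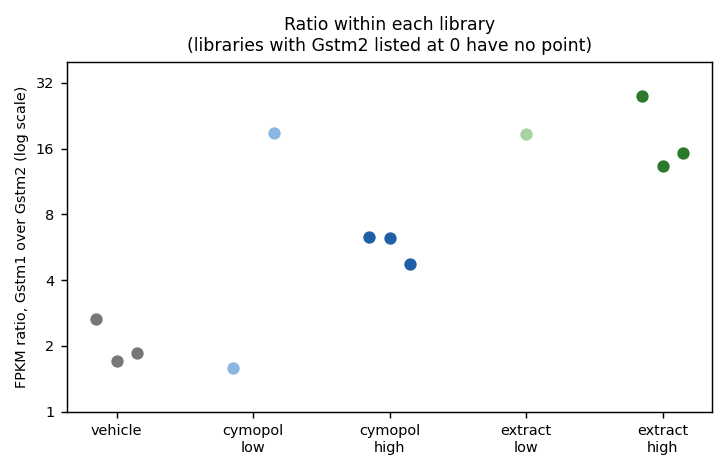
FPKM of Gstm1 divided by that of Gstm2 in each library, on a logarithmic axis, by group. Points of the vehicle lie at 1.70 to 2.65, those of the cymopol high dose at 4.72 to 6.30 and those of the extract high dose at 13.4 to 28.0, and 3 low-dose libraries in which Gstm2 was listed at 0 have no point.

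For each member, the 3 protein-coding genes whose log2(FPKM + 1) followed it most closely over the 15 libraries were found by Pearson's r, as a description in which the libraries share differences in depth and composition. Gstm1 was followed by Ftl1, the ferritin light chain, at r = 0.937, by Ethe1, a mitochondrial persulfide dioxygenase, at r = 0.935 and by Dmbt1, a secreted epithelial glycoprotein, at r = 0.935. For Gsta4 the closest genes were Rab25, an epithelial small GTPase, at r = 0.918, Tbc1d15 at r = 0.911 and Ndufa2, a subunit of respiratory complex I, at r = 0.903. Gsta1 was followed by Epn3 at r = 0.901, by Gm10639, with which it shares sequence, at r = 0.879 and by Trap1 at r = 0.864. Gsta3 was followed by Klhl42 at r = 0.975, Nrp1 at r = 0.934 and Ppara at r = 0.927. Gstm2 was followed by Ptdss1 at r = 0.947, Tatdn2 at r = 0.946 and Tars at r = 0.930. Gstm3 was followed by Gm20481 at r = 0.929, Nyap1 at r = 0.910 and Fmo5, a flavin monooxygenase, at r = 0.889. Gstm4 was followed by Alb at r = 0.927, Polr2e at r = 0.913 and Cacnb2 at r = 0.907. No gene stood among the 3 closest of more than 1 member.

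Genes that act around these enzymes were taken from fixed lists, which were chosen with earlier results of these data known. None of these genes had an adjusted p under 0.05 in limma in any of the 7 comparisons. With voom, G6pdx was called as higher than the vehicle at both high doses, and Akr1b8 and Esd at the high dose of the extract, and no other gene of the lists was called. Among the other alpha- and mu-class genes, 1 of 6 could be tested, Gstm6, which differed from the vehicle by 0.82 at the high dose of the extract and by 0.80 at the high dose of cymopol. Of the other glutathione S-transferase classes, 12 of 16 genes were tested. At the high dose of the extract, 3 of these 12 were higher at an unadjusted p under 0.05 and 0 lower, beside 10.6% of all genes tested that were higher, with a median difference of 1.35 beside 0.71. At the high dose of cymopol, 2 of the 12 were higher and 0 lower, beside 12.5% of all genes, with a median of 0.94 beside 0.81. The smallest p in both contrasts belonged to Gstp2, a pi-class enzyme with a near-identical neighbour, Gstp1, so that its value is uncertain. Gstp2 had 16.7, 25.3 and 5.40 FPKM in the high-dose extract libraries and 3.41, 26.5 and 7.93 FPKM in the high-dose cymopol libraries, and was listed at 0 in all 3 vehicle libraries (limma, adjusted p = 0.261 for the extract and adjusted p = 0.258 for cymopol). Mgst3, a membrane-bound member, had 27.4, 33.8 and 28.1 FPKM in the high-dose extract libraries and 20.8, 21.3 and 15.7 FPKM in the high-dose cymopol libraries, against 0, 1.06 and 7.64 FPKM in the vehicle libraries.

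Glutathione is supplied by synthesis and recycling, and 10 of 12 genes of these steps were tested. At an unadjusted p under 0.05, 3 of 10 were higher at the high dose of the extract, beside 10.6% of all genes tested, and 4 of 10 at that of cymopol, beside 12.5%, with 0 lower in either. Their medians were 1.93 for the extract, beside 0.71 over all genes, and 2.01 for cymopol, beside 0.81. Gclc, the catalytic subunit of the rate-limiting enzyme of glutathione synthesis, had 411, 14.9 and 34.5 FPKM in the high-dose extract libraries, against 0.253, 17.1 and 0 FPKM in the vehicle libraries, with an overlap through vehicle replicate 4 and 1 extract library far above the rest. That level of 411 FPKM came to an estimated 82.0 fragments, fewer than the 183 and 415 of extract high-dose replicates 23 and 25, so that it is uncertain. G6pdx, which supplies NADPH for the reduction of glutathione, had 8.0, 27.5 and 7.47 FPKM in the high-dose extract libraries, against 0, 0 and 5.00 FPKM in the vehicle libraries. At the high dose of cymopol, the smallest p in this list were those of Cth and Cbs, which make cysteine from homocysteine. Cth had 3.83, 17.5 and 6.70 FPKM in the high-dose cymopol libraries, against 0.543, 0 and 0 FPKM in the vehicle libraries. Cbs had 39.6, 15.3 and 5.36 FPKM in the high-dose cymopol libraries, against 0, 3.63 and 1.83 FPKM in the vehicle libraries.

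Downstream of conjugation, 15 of 18 genes for mercapturate steps and export were tested, and the list lay near the median of all genes, at 0.98 beside 0.71 for the high dose of the extract and 0.76 beside 0.81 for that of cymopol. At an unadjusted p under 0.05, 2 of 15 were higher with the extract, beside 10.6% of all genes tested, and 3 of 15 with cymopol, beside 12.5%, with 0 lower in either, counts near these shares. The genes named here had the smallest p of the list. Abcc4, an export pump, had 11.8, 1.98 and 3.8 FPKM in the high-dose extract libraries, against 0, 0 and 1.51 FPKM in the vehicle libraries. Acy3, an aminoacylase that acts on mercapturates, had 1.68, 4.15 and 2.46 FPKM in the high-dose extract libraries, against 0.319, 0 and 0 FPKM in the vehicle libraries. Acy1, an aminoacylase, had 10.7, 7.61 and 6.22 FPKM in the high-dose cymopol libraries, against 0.789, 0 and 0 FPKM in the vehicle libraries. Anpep, an aminopeptidase of the brush border, had 0.167, 1.99 and 457 FPKM in the high-dose cymopol libraries, against 0, 0.358 and 0 FPKM in the vehicle libraries, so that its difference rests on replicate 14.

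Among other NRF2 targets, 19 of 23 genes were tested. At the high dose of the extract, all 19 lay above the vehicle, as did 77.1% of all genes tested. Of the 19, 10 were higher with an unadjusted p under 0.05, beside 10.6% of all genes tested, and 0 lower at that level. Their median difference was 2.57, beside 2.48 for the 7 transferases and 0.71 over all genes tested. At the high dose of cymopol, 18 of 19 lay above the vehicle, as did 79.6% of all genes tested. At an unadjusted p under 0.05, 6 of 19 were higher, beside 12.5% of all genes, and 0 lower. The median there was 1.90, beside 1.54 for the transferases and 0.81 over all genes. Akr1b8, an aldo-keto reductase, had 35.3, 23.6 and 16.1 FPKM in the high-dose extract libraries and 17.2, 23.7 and 12.8 FPKM in the high-dose cymopol libraries, against 1.26, 0 and 0 FPKM in the vehicle libraries. Nqo1, which reduces quinones, had 22.4, 7.45 and 8.03 FPKM in the high-dose extract libraries, against 0.167, 0 and 0 FPKM in the vehicle libraries. Gpx2, the glutathione peroxidase of the gut epithelium, had 14.3, 25.9 and 11.3 FPKM in the high-dose cymopol libraries, against 0.447, 0 and 0 FPKM in the vehicle libraries. Its high-dose cymopol levels came to an estimated 0.000838, 0.00286 and 0.000603 fragments, so that the bounds around them were very wide. These 3 genes were named for their small p, so that the lack of overlap in these values is no separate result, and up to 51.4% of the genes tested were listed at 0 in a vehicle library.

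The xenobiotic-sensing regulators themselves were all tested, 13 of 13, with medians of 1.03 at the high dose of the extract and 1.13 at that of cymopol, beside 0.71 and 0.81 over all genes tested. At an unadjusted p under 0.05, 1 of 13 was higher at the high dose of the extract, Nr1i3, a nuclear receptor, beside 10.6% of all genes tested, and 0 of 13 at the high dose of cymopol, beside 12.5%, with 0 lower in either. Nr1i3 had 0, 4.25 and 1.49 FPKM in the high-dose extract libraries and was listed at 0 in all 3 vehicle libraries. Nfe2l2, which encodes NRF2, had 7.67, 11.2 and 41.7 FPKM in the high-dose extract libraries, against 0.836, 3.35 and 5.11 FPKM in the vehicle libraries (limma, adjusted p = 0.473). Keap1, its inhibitor, had 5.99, 9.53 and 12.5 FPKM in the high-dose cymopol libraries, against 0.416, 0.668 and 5.86 FPKM in the vehicle libraries (limma, adjusted p = 0.434). Bach1, a repressor that competes with NRF2, had 4.21, 8.43 and 13.1 FPKM in the high-dose cymopol libraries, against 0.0380, 4.86 and 3.19 FPKM in the vehicle libraries (limma, adjusted p = 0.503).

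At the low doses, the same lists were read at an unadjusted p under 0.05. Of the 11606 genes tested, 658 passed this in either direction with cymopol, 451 of them higher (3.89% of all). With the extract 451 passed, 128 of them higher (1.10% of all). With cymopol, 1 of the 15 tested genes for mercapturate steps and export was higher and 1 lower, and the other lists had 0 in either direction. With the extract, 1 of 19 other NRF2 targets was higher, 1 of 15 mercapturate and export genes was lower, and the other lists had 0. The median of the other NRF2 targets was 0.84 with cymopol, beside 1.00 for the 7 transferases and 0.23 over all genes, and 0.87 with the extract, beside 0.41 for the transferases and -0.14 over all genes.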

How the data were processed

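The deposited values are FPKM, made by the authors, 1 table per library with a lower and an upper bound. The aligner was STAR 2.4.0j and the genome GRCm38.p4, per the submitters' processing notes. Column names are those Cufflinks writes, per the file headers, and its version and settings are not given here. Each table lists annotated genes and loci assembled in that library. A gene without its own row took the level of an assembled locus whose overlap was at least 0.5 of their joint span, by GENCODE M21. The plan named a count test had the tables held counts. Tested were genes with a value in every library and at least 1 FPKM in at least 3, as log2(FPKM + 1), with limma 3.58.1 in R 4.3.3, 1 mean per group and an intensity trend. The fit was tested on simulated normal values, which lack the zeros and depth differences of these libraries and so do not cover them. Tests were two-sided, with Benjamini-Hochberg adjustment over all 11606 genes tested and a threshold of 0.05, in 7 comparisons. Fragments per gene were derived from the interval around its FPKM, as if it held counting error only, which gives too few where it is wider. All 7 members were named in every library. From each related list, genes called or else the 2 with the smallest p were named. Members, lists and markers were chosen with earlier results of these data known.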

Additional observations from a re-analysis of the deposited data

Results flagged for a closer look

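Gstm2 moved in opposite directions from the vehicle mean in a pair of groups. All 3 cymopol high-dose libraries lay above the mean log2(FPKM + 1) of the vehicle, which was 2.67, and all 3 extract low-dose libraries lay below it, with 2.55 between the means of these groups. This difference was not tested, and vehicle libraries lay on both sides of their own mean.

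Loci assembled inside 3 of the genes, but given to none, held fragments where the vehicle had no such locus in that gene. An intronic locus of Gsta1 held an estimated 7.0 fragments in cymopol high-dose replicate 11, and an intronic locus of Gsta4 held 18 in extract low-dose replicate 26, a library in which Gsta4 itself was listed at 0. A locus in Gstm4, 40% exonic, held 13.6 in that same library. None of these fragments entered the levels of the genes.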

How the results depend on the processing

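Of 756 values of the 7 genes under 25 alternative settings, 58 turned sign and none passed the threshold, and the smallest adjusted p of a member was 0.0639 (limma voom, Gsta4, extract high dose against vehicle, 3.34). The median of the members stayed above 0 under all 16 alternatives of each contrast with the vehicle and of the extract doses, under 14 of 16 for the cymopol doses, and stayed below 0 under all 16 for cymopol against extract. Under median-of-ratios scaling it was 0.98 and 2.14 for the high doses of cymopol and extract against vehicle, beside 0.24 and 0.25 over all genes, and under quantile normalization 0.93 and 1.93, beside -0.04 and -0.05. Of the 121 and 136 genes called by voom in these contrasts, 29 and 34 were higher. Depth limits Gsta1, Gsta3 and Gstm4 most, with few fragments in most libraries. No paired analysis was possible because the replicate numbers differ between the groups. With annotated identifiers only, levels from assembled loci were set to 0, and some members, Gstm1 among them, then failed the filter. The changes of the members under that setting follow from those zeros. The causes of the other changes below were not tested.

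Across all genes, 0 passed the threshold for cymopol low dose against vehicle and extract low dose against vehicle, 1 passed the threshold for extract high dose against vehicle, cymopol high against low dose and extract high against low dose and 2 passed the threshold for cymopol high dose against vehicle and cymopol against extract high dose. With a pseudocount of 0.1, the count moved to 0 for cymopol high against low dose, to 1 for extract low dose against vehicle and cymopol against extract high dose, to 3 for extract high dose against vehicle, to 7 for cymopol high dose against vehicle, and the median of the 7 genes with a value moved to 3.27 for cymopol high dose against vehicle. Reversed here were Gstm2 to 0.16 (extract high dose against vehicle), Gstm4 to 0.28 (cymopol against extract high dose). Without the filter on low values, the count moved to 0 for cymopol high dose against vehicle and cymopol high against low dose, to 1 for cymopol against extract high dose. Under median-of-ratios scaling, the count moved to 0 for cymopol high dose against vehicle and cymopol high against low dose, to 1 for cymopol against extract high dose, to 2 for cymopol low dose against vehicle, to 3 for extract high dose against vehicle. Reversed here were Gstm2 to -0.38 (cymopol high dose against vehicle), Gstm1 to -0.32, Gstm3 to -0.07 and Gstm4 to -0.06 (cymopol high against low dose), Gstm1 to -0.06 (extract high against low dose). Under quantile normalization, the count moved to 0 for cymopol high against low dose, to 1 for cymopol against extract high dose, to 2 for extract high dose against vehicle and cymopol low dose against vehicle. Reversed here were Gstm2 to -0.19 (cymopol high dose against vehicle), Gstm1 to -0.06, Gstm3 to -0.26 and Gstm4 to -0.44 (cymopol high against low dose). With only the 2 groups compared in the fit, the count moved to 0 for cymopol high dose against vehicle, extract high dose against vehicle, cymopol high against low dose and extract high against low dose. With array weights, the count moved to 0 for cymopol high against low dose, to 7 for cymopol against extract high dose, to 13 for extract high against low dose. Reversed here were Gsta3 to 0.09 (cymopol low dose against vehicle), Gstm4 to -0.20 (cymopol high against low dose). With annotated identifiers only, the count moved to 0 for cymopol high dose against vehicle and cymopol high against low dose, to 1 for cymopol against extract high dose. The median of the 3 genes that passed the filter there moved to 1.08 for extract high dose against vehicle. Reversed here were Gstm3 to -0.97 (extract high against low dose), Gstm3 to 0.87 (cymopol against extract high dose). With voom, the count moved to 2 for extract high against low dose, to 4 for cymopol high against low dose and cymopol against extract high dose, to 121 for cymopol high dose against vehicle, to 136 for extract high dose against vehicle. Reversed here were Gsta1 to -0.06 and Gstm4 to -0.36 (cymopol high dose against vehicle), Gstm2 to 0.09 (extract high dose against vehicle), Gsta3 to -0.18 (extract low dose against vehicle), Gstm1 to -0.46, Gstm3 to -1.0 and Gstm4 to -1.01 (cymopol high against low dose), Gstm1 to -0.22 (extract high against low dose). With exonic pieces added, chosen after seeing the data, the reversed value was Gstm1 to -0.13 (cymopol high against low dose). Without the 3 shallowest libraries, also chosen after seeing the data, the count moved to 0 for cymopol high against low dose, to 1 for cymopol high dose against vehicle and cymopol low dose against vehicle, to 2 for extract low dose against vehicle and extract high against low dose, to 5 for extract high dose against vehicle. Reversed here were Gstm2 to 0.60 (extract high dose against vehicle), Gstm2 to 1.65 (cymopol low dose against vehicle), Gsta4 to -0.03, Gstm1 to -0.44, Gstm2 to -0.49 and Gstm4 to -0.44 (cymopol high against low dose). Leaving out 1 library at a time, the count ranged over 0 to 7 for cymopol high dose against vehicle, 1 to 7 for extract high dose against vehicle, 0 to 9 for cymopol low dose against vehicle, 0 to 8 for extract low dose against vehicle, 0 to 3 for cymopol high against low dose, 1 to 3 for cymopol against extract high dose. Values that reversed ranged over Gstm2 -0.34 to 1.16 (cymopol high dose against vehicle), Gstm2 -0.90 to 0.60 (extract high dose against vehicle), Gsta1 -0.89 to 0.26, Gsta3 -0.92 to 0.57 and Gstm2 -1.32 to 1.04 (cymopol low dose against vehicle), Gsta3 -0.44 to 1.01, Gstm4 -0.00 to 0.61 and Gsta1 -0.20 to 1.16 (extract low dose against vehicle), Gstm3 -0.74 to 1.40, Gstm1 -0.44 to 0.99, Gstm4 -0.44 to 0.69, Gsta4 -0.03 to 1.72 and Gstm2 -0.49 to 1.86 (cymopol high against low dose), Gsta3 -0.03 to 1.21 and Gstm4 -0.80 to 0.25 (cymopol against extract high dose). The count was 7, 7, 9 and 5 without vehicle replicate 2 for cymopol high, extract high, cymopol low and extract low dose against vehicle, and 8 without vehicle replicate 5 for the extract low dose. For cymopol high dose against vehicle it was 0 without vehicle replicate 4, vehicle replicate 5 or cymopol high-dose replicate 12.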

Other observations

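Vehicle replicate 4 held an intronic assembled locus of 190 bp inside Gstm1 with an estimated 43.4 fragments, more than the 24.6 of the gene itself, and an intronic locus of 133 bp inside Gsta3 with 14.0 fragments, against 6.66 for the gene. Gstm5, a mu-class gene that did not enter the test, was listed at 14.1 FPKM in this library and at 0 in the other 14.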
